A study of Mus musculus with 10 samples.

Results

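Cytosolic ribosomal protein genes encode the proteins of the ribosomes that translate nuclear mRNAs, and they were followed here in dorsal root ganglia (DRG), the clusters of sensory neurons and glia beside the spinal cord, of E18.5 mouse embryos. Members were chosen by name: protein-coding genes whose mouse symbol follows the *Rpl*, *Rps*, *Rplp* and *Rpsa* pattern, with the Rps6k kinases left out. The rule found 83 genes among the 55414 gene rows, 51 of the large subunit and 32 of the small subunit, and left out 6 pseudogenes with a matching symbol. Of the 83 members, 80 passed the filter on low counts, and *Rpl3l*, *Rpl10l* and *Rpl39l* did not.

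Bulk RNA-seq was performed on DRG of 5 control embryos and 5 *WD1* cKO embryos. The *WD1* cKO embryos carry Wnt1-Cre, which acts in the neural crest that gives rise to DRG neurons and glia, together with Dach1 flox/flox alleles, and the controls are described as littermate embryos without Cre recombinase. The genotype entries of the deposited samples give both groups Dach1 flox/flox but are crossed against the sample titles, with Wnt1-Cre entered for the controls, and the titles were followed here. The Dach1 flox/flox line was of mixed C57Bl/6J and CD1 background. *Dach1*, counted over all its exons and not over the floxed exon alone, stood at 35.0, 38.4, 41.6, 37.0 and 37.3 CPM, counts scaled to the size of the library, in the 5 control libraries and at 19.1, 20.7, 19.5, 20.2 and 20.4 CPM in the 5 *WD1* cKO libraries. It was lower in all 5 libraries titled *WD1* cKO, with a log2 fold change of -0.92 ± 0.05 (SE, n = 5 and 5; edgeR quasi-likelihood test, Benjamini-Hochberg adjusted p = 5.48e-06).

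A ribosome is built from ribosomal RNA and a single copy of most ribosomal proteins, so the genes for both subunits are usually expressed in step. Their mRNAs begin with a stretch of pyrimidines, the 5′ terminal oligopyrimidine (TOP) motif, through which mTOR signalling controls their translation together with that of elongation factors. Ribosomal protein mRNAs are short and abundant, and mammalian genomes hold many reverse-transcribed copies of them, the processed pseudogenes, whose sequence is close to that of the parent mRNA.

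Such copies are shown first, for pairs picked after the counts of the copies were seen. They are not examples of how level relates to unique sequence, which is described further below. Each coding sequence is numbered from 1 at its start codon, letters that differ between the 2 sequences of a pair are in capitals, and the sequences come from the GENCODE vM21 transcripts of the GRCm38 build. *Rps7* (chr12:28630854-28635953, minus strand) and the transcribed processed pseudogene *Gm6472* (chrX:152909505-152910155, minus strand) differed at 3 positions over the 582 coding bases, 2 of which lie in bases 1 to 60. *Rpsa* (chr9:120127689-120132369, plus strand) and the processed pseudogene *Rpsa-ps10* (chr3:150072658-150073542, minus strand) differed at 6 positions over 885 bases, 2 of them in bases 160 to 219. *Rpl15* (chr14:18267823-18271391, minus strand) and its processed pseudogene *Gm8420* (chr1:51940664-51941261, minus strand) differed by 22 substitutions and 14 gap bases over 612 bases, with 6 differences in bases 539 to 598.
Rps7: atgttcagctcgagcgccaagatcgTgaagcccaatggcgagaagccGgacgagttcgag
Gm6472: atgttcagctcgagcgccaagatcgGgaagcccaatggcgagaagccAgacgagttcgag
Rpsa: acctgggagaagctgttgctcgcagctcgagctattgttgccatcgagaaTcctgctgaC
Rpsa-ps10: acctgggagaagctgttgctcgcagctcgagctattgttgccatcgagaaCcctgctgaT
Rpl15: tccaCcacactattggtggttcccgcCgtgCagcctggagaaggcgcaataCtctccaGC
Gm8420: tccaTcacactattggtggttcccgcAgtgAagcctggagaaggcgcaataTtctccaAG

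*Rps27* (chr3:90212522-90213651, minus strand) and its paralogue *Rps27l* (chr9:66946086-66949516, plus strand) are shown as the contrary case, an ancient pair whose members can be told apart along the whole coding sequence. They shared 76.2% of 252 coding bases, with 60 differences, 28 of which lie in bases 1 to 120.
Rps27: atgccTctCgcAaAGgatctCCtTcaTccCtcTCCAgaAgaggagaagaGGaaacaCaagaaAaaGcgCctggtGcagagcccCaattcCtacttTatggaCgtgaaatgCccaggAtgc
Rps27l: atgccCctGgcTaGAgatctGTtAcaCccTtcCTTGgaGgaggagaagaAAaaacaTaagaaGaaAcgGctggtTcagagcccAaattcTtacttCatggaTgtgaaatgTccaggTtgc

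Annotated transcription starts were searched for the pyrimidine stretch that these genes share. RefSeq promoter sequences of the GRCm38.p6 build matched 63 of the 83 members by symbol. The longest unbroken pyrimidine run was taken within the stretch made of the 10 bases before the start and the 10 bases that begin with it. A run that goes on past that stretch was measured only inside it. The longest run reached 8 bases or more in 21 of 63 members (33.3%) and in 8.65% of 26962 other genes. The letters CTTTCC stood in the 300-base promoter window, on either strand, of 33 of 63 members (52.4%) and of 29.3% of the other genes, and CTTTTC in 27.0% against 24.3%. A 30-base window, in which the annotated start is the letter in position 16 and the run measured inside that stretch is in capitals, is shown for members with long runs (*Rpl35*, *Rpl27a*, *Rpl15*), the member closest to the others between libraries (*Rps18*), those with the lowest p in either direction (*Rps25*, *Rps6*), and the paralogue genes *Rps27* and *Rpl22l1*. The windows are chr2:39005117-39005146, chr7:109519180-109519209, chr14:18270972-18271001, chr17:33955651-33955680, chr9:44407699-44407728, chr4:86857353-86857382, chr3:90213634-90213663 and chr3:28805493-28805522, in that order, on the strand of the gene.
Rpl35: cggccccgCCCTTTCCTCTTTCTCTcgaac
Rpl27a: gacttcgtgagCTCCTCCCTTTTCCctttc
Rpl15: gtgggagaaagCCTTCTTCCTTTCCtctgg
Rps18: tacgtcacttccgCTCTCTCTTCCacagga
Rps25: tttttccgacaTCTTagcgaggctgctgtg
Rps6: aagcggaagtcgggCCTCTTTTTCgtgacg
Rps27: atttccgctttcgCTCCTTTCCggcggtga
Rpl22l1: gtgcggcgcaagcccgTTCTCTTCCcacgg

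The libraries held between 19757596 and 34796562 counts in genes. Summed sensory neuron markers ranged from 6537 to 6966 CPM over the 10 libraries and summed glial markers from 833 to 1031 CPM, and all listed markers of both cell types were detected. Blood markers ranged from 156 to 2501 CPM, muscle markers from 23.2 to 175 CPM, and spinal cord markers stood at 13.4 CPM in control replicate 3 against at most 1.42 CPM in the other 9 libraries. In bulk samples, fewer cells of a type and less RNA per cell cannot be told apart.

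Ribosomal protein genes took a small share of the counts as these were assigned to genes. Much of the coding sequence of many members also occurs in other annotated genes, as described below. The part of this shared sequence in the share of counts was not tested. The 83 genes together held 0.484, 0.465, 0.499, 0.446 and 0.450% of counts in control replicates 1 to 5 and 0.470, 0.480, 0.504, 0.461 and 0.488% in *WD1* cKO replicates 1 to 5. The group means were 0.469% ± 0.023 and 0.481% ± 0.017 (SD, n = 5 each), and the ranges overlapped. Large subunit genes held 0.263% ± 0.014 in controls and 0.270% ± 0.010 in *WD1* cKO, and small subunit genes 0.206% ± 0.009 and 0.211% ± 0.008 (SD, n = 5 each). The highest library of each group was replicate 3 and the lowest was replicate 4, for the sum over all members.

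**Figure D1:**
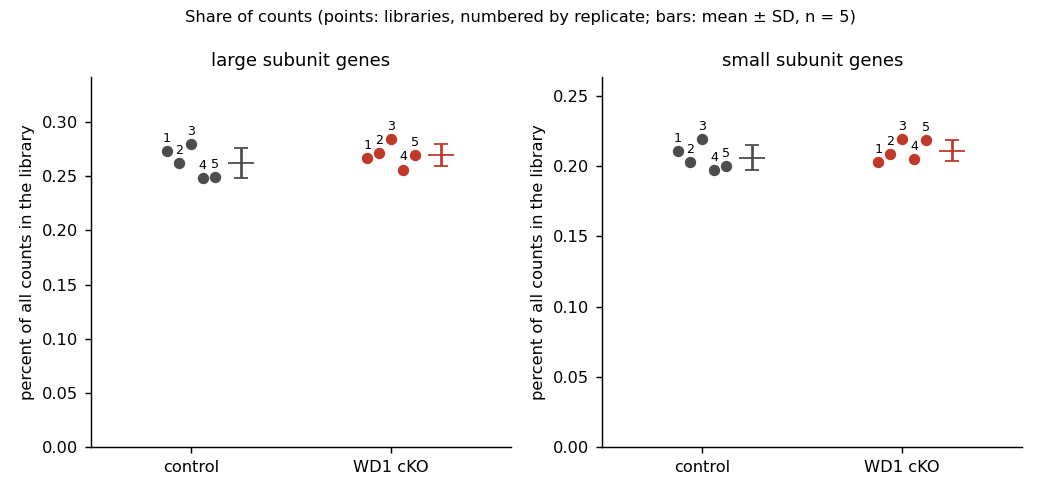
Percent of all counts in each library that fell in large subunit genes (left) and small subunit genes (right), for 5 control and 5 *WD1* cKO libraries numbered by replicate, with mean ± SD beside the points. The groups overlap, with large subunit means of 0.263% and 0.270% and small subunit means of 0.206% and 0.211%.

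Although their products are needed in nearly equal amounts, members differed widely in level. Levels are compared between genes as mean CPM per kilobase (kb) of annotated exon. Among the highest were *Rplp1* at 367 CPM per kb, an acidic protein of the stalk that recruits elongation factors, *Rpl4* at 246, which lines the exit tunnel for the growing protein, *Rpl8* at 236, which lies at the peptidyl transferase centre, and *Rps15* at 223, a small subunit protein near the decoding site. The lowest were *Rpl10l* at 0.048, *Rpl3l* at 0.075 and *Rpl39l* at 0.10 CPM per kb, paralogues known from testis (*Rpl10l*, *Rpl39l*) and striated muscle (*Rpl3l*), followed by *Rpl23a* at 0.69, which sits at the rim of the exit tunnel, and *Rpsa* at 1.17, the laminin receptor protein of the small subunit. Among the 80 tested members the highest level was 534 times the lowest. In total 25 members had a mean under 10 CPM and 13 a mean above 100 CPM, and the 5 members with the most counts held 36.1% of the summed CPM of all members.

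Some partners in the same structure also differed in level, while others were close. Of the stalk proteins, *Rplp0* stood at 151 and *Rplp1* at 367 CPM per kb, against 32.9 for *Rplp2*. *Rpl5* and *Rpl11*, which travel together with 5S ribosomal RNA and bind MDM2, were close, at 1.81 and 2.05 CPM per kb. At the rim of the exit tunnel, *Rpl26* stood at 25.1 and *Rpl35* at 10.8, against 3.39 for *Rpl31*, 1.29 for *Rpl19* and 0.69 for *Rpl23a*. *Rps6*, the substrate of the S6 kinases, stood at 1.42 CPM per kb, and *Rps27a*, which is made as a fusion with ubiquitin, at 2.81. Every 100-base coding window of *Rpl5*, *Rpl11*, *Rpl31*, *Rpl23a*, *Rps6* and *Rps27a* also occurs in another annotated gene. The share of windows found in no other gene was 19.2% for *Rpl19*, 28.5% for *Rpl35* and 54.2% for *Rpl26*. It was 73.2, 62.1 and 67.1% for *Rplp0*, *Rplp1* and *Rplp2*. The part of shared sequence in these levels was not tested.

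The level of a member followed the share of its coding sequence that occurs in no other annotated gene. Each coding sequence was divided into overlapping windows of 100 bases, and a window was called unique where no transcript of another gene held it. No window was unique in 24 of the 82 members long enough to have one (29.3%), against 0.827% of 14758 other tested protein-coding genes, and the median share was 28.9% for members and 100% for the other genes. The 24 members with no unique window had a median level of 3.50 CPM per kb (range 0.687 to 25.8), the 32 members with a share above 0 and under 50% had 13.9 (range 1.17 to 54.1), and the 26 members with 50% or more had 44.0 (range 0.048 to 367). Leaving out *Rpl3l*, *Rpl10l* and *Rpl39l*, the last median was 57.0 and the range 10.4 to 367. Spearman's rho between level and unique share was 0.59 across 82 genes and 0.76 across the 79 genes without those paralogues, as a description across genes, which are not independent replicates. Each of 78 members had at least 1 copy elsewhere in the annotation (at least 90% identity over at least 80% of the coding sequence), with a median of 8 and up to 77 for *Rpl21*. How reads that map to several places were treated in the counting is not given in the sources used here, and the part of shared sequence in these levels was not tested.

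**Figure D2:**
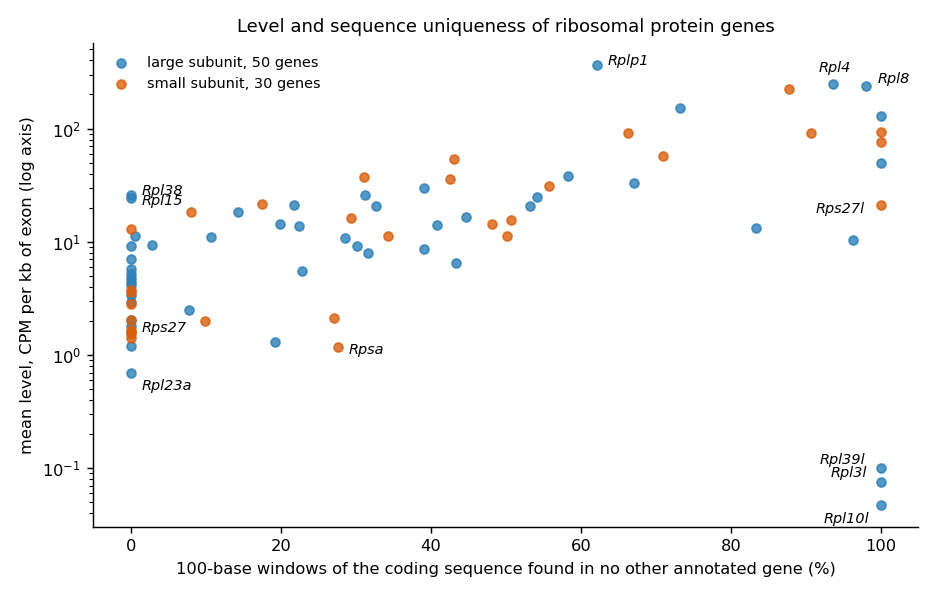
Mean level over the 10 libraries, in CPM per kb of exon on a log axis, against the percent of 100-base windows of the coding sequence found in no other annotated gene, for 50 large subunit and 30 small subunit genes (*Rpl41*, with a coding sequence of 75 bases, is not plotted). Members with no unique window lie between 0.687 and 25.8, and *Rplp1*, *Rpl4* and *Rpl8* lie at the top among members with 50% or more.

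The pair *Rps27* and *Rps27l* differed in both unique share and level. *Rps27*, with no unique window and 10 copies, stood at 1.53 CPM per kb. *Rps27l*, a p53-induced paralogue with all windows unique, stood at 20.9 CPM per kb. The other paralogue pairs did not share this order, with *Rpl22* at 49.8 and *Rpl22l1* at 14.04, *Rpl7* at 38.1 and *Rpl7l1* at 10.4, and *Rpl3*, *Rpl10* and *Rpl39* at 11.1, 5.74 and 13.2 CPM per kb.

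Members tended to rise and fall together from library to library within a genotype. After the mean of each group was taken away, the correlation of a member with the mean of the other members was positive in 67 of 80 members, with a median Pearson r of 0.46 over the 10 libraries, and it exceeded 0.5 in 36 (45.0%). Among the 17410 tested genes that are no members, the correlation with the mean of the members had a median of 0.01 and exceeded 0.5 in 15.7%. For the 47 members at 20 CPM or more the median was 0.56. Large subunit members had a median of 0.50 (48 genes) and small subunit members 0.38 (32 genes). These correlations describe 10 libraries that share their scaling, and no test was made on them.

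The libraries differed little in the mean of the members. Relative to its group mean, this mean stood at 0.06, -0.001, 0.07, -0.09 and -0.03 in control replicates 1 to 5 and at -0.02, 0.005, 0.05, -0.04 and 0.01 in *WD1* cKO replicates 1 to 5, on the log2 CPM scale. Replicate 3 was thus the highest and replicate 4 the lowest in both groups. Some marker sums moved with it: the within-group deviation of the members had r = 0.68 with connective tissue, 0.67 with endothelium, 0.66 with blood, 0.59 with muscle, 0.50 with cycling cells, 0.06 with macrophages, -0.22 with sensory neurons, -0.41 with glia and -0.08 with the total count, each over 10 libraries. With spinal cord markers r was also 0.68. Their sum was 13.4 CPM in control replicate 3 and at most 1.42 CPM in every other library. None of the 5 spinal cord genes passed the filter on low counts, so this r rests on values near the floor and 1 extreme library. Connective tissue markers were at 5827 CPM in control replicate 3 and at 4186 CPM in control replicate 4. Their part in the co-variation was not tested. Without control replicate 3, which stood apart in spinal cord markers, the median r of a member with the other members was 0.45.

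The members closest to the others were *Rps18* (r = 0.94), a small subunit head protein, *Rps28* (0.90), *Rpl10a* (0.89), *Rps3* (0.88), which lies at the mRNA entry, and *Rpl4* (0.87). *Rps18* stood at 30.7, 26.9, 30.7, 25.0 and 26.0 CPM in controls and at 26.1, 27.5, 29.0, 27.1 and 27.2 CPM in *WD1* cKO. *Rpl4* stood at 513, 474, 516, 472 and 465 CPM in controls and at 499, 501, 531, 475 and 497 CPM in *WD1* cKO. In both genes control replicates 1 and 3 were high among the controls, *WD1* cKO replicate 3 was the highest of its group, and the groups overlapped.

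Among those at the other end were *Rpl22l1* (r = -0.62), *Rps15a* (-0.33), *Rps29* (-0.28) and *Rpl15* (-0.26). *Rps29* had only 19 to 50 counts in a library. Its coefficient of variation within groups was 19.0%, near the 18.6% that counting error alone gives, so its r says little. *Rpl22l1*, the paralogue whose mRNA RPL22 is known to bind and restrain, stood at 28.4, 27.7, 19.7, 28.3 and 30.2 CPM in controls and at 31.5, 25.5, 26.8, 31.2 and 29.98 CPM in *WD1* cKO. *Rpl22* stood at 143, 144, 153, 137 and 140 CPM in controls and at 148, 147, 154, 140 and 144 CPM in *WD1* cKO. In control replicate 3 *Rpl22* was the highest of its group and *Rpl22l1* the lowest. Over the 10 libraries the pair had Pearson r = -0.59 (permutation p = 0.0710, adjusted 0.213 over 3 pairs) and Spearman's rho = -0.48 (permutation p = 0.167, adjusted 0.50), two-sided. Without the 2 libraries farthest from the median of *Rpl22*, control replicate 3 and *WD1* cKO replicate 3, r was -0.19. Leaving these libraries out also narrows the range of *Rpl22*, so the smaller r cannot show that the relation rested on them. Within groups r was -0.76. *Rpl7* and *Rpl7l1* had r = 0.20 (permutation p = 0.570) and rho = 0.24 (permutation p = 0.511), and *Rps27* and *Rps27l* had r = -0.26 (permutation p = 0.451) and rho = -0.25 (permutation p = 0.492), with adjusted p of 0.570 and 0.511 for both pairs, for r and rho. Without the 2 libraries farthest on the partner gene, r was -0.12 and -0.38.

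**Figure D3:**
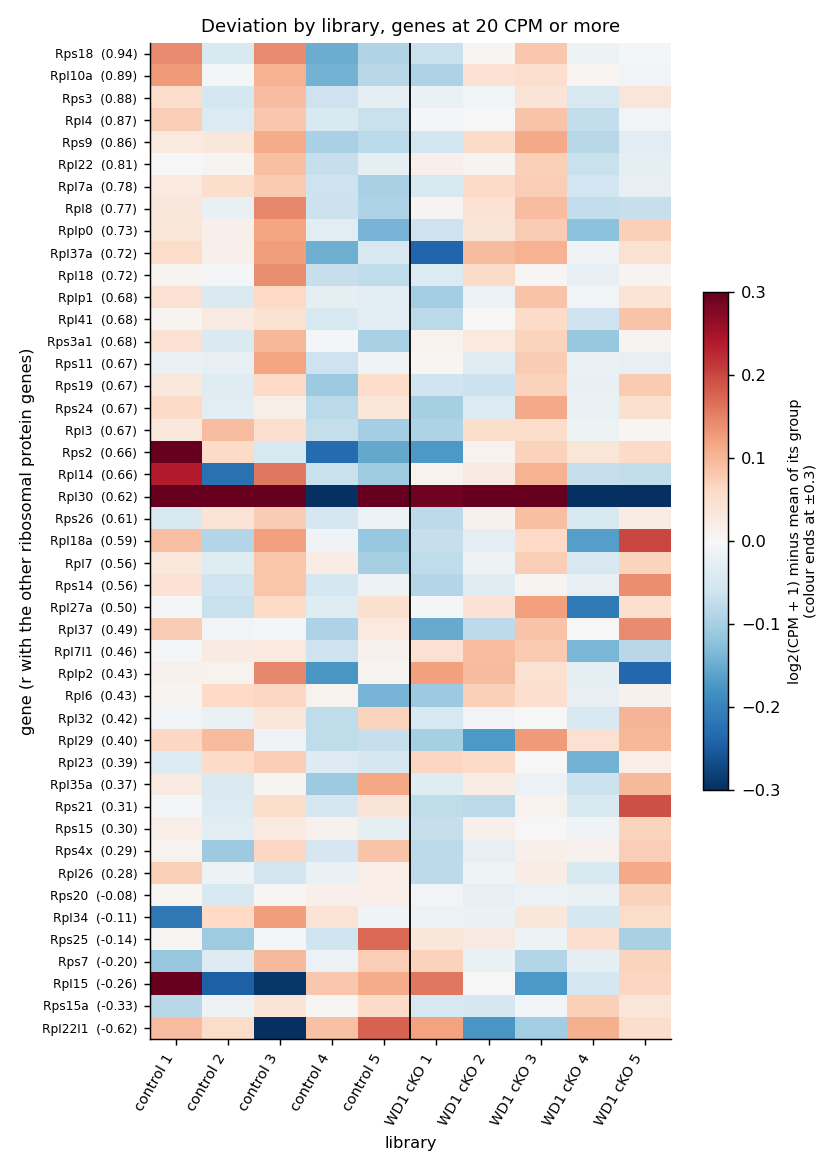
Deviation of each library from the mean of its group, in log2(CPM + 1), for 45 ribosomal protein genes at 20 CPM or more, ordered by their correlation with the other ribosomal protein genes (in brackets). Control replicate 3 and *WD1* cKO replicate 3 are mostly red and both replicates 4 mostly blue in the upper rows, and *Rpl30*, *Rpl15* and *Rpl22l1* depart from that pattern or exceed the ends of the colour scale.

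Outside the family, the protein-coding genes closest to the mean of the members were *Eef1b2* (r = 0.96), a subunit of the elongation factor that reloads eEF1A, *Zfp36l2* (0.95), which binds AU-rich mRNAs, *Tk1* (0.94), a thymidine kinase of dividing cells, *Six5* (0.94) and *Jag1* (0.94), a Notch ligand. *Eef1b2* stood at 227, 218, 225, 210 and 212 CPM in controls and at 223, 230, 233, 223 and 228 CPM in *WD1* cKO. *Tk1* stood at 15.6, 14.6, 16.2, 11.9 and 12.4 CPM in controls and at 13.5, 14.9, 16.7, 14.2 and 14.6 CPM in *WD1* cKO. Of the related lists, other TOP mRNA genes (12 genes) had a median r of 0.66 with the mean of the members, elongation factors (7 genes) 0.50, RNA polymerase I machinery (12 genes) 0.43, initiation factors (30 genes) 0.42 and biogenesis factors (39 genes) 0.34, while p53 targets (14 genes) had -0.17.

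A few members varied between libraries far more than the rest, in steps that did not follow genotype. The median coefficient of variation within groups was 6.86% over the 80 tested members. For members at 20 CPM or more it was 5.36%, against 5.26% for 8566 other genes at that level. *Rpl30*, a large subunit protein of the subunit interface, stood at 30.4, 29.0, 33.0, 5.95 and 30.6 CPM in controls and at 31.0, 31.9, 32.3, 18.1 and 17.1 CPM in *WD1* cKO. Control replicate 4 was the lowest, *WD1* cKO replicates 4 and 5 were intermediate, and the other 7 libraries lay between 29.0 and 33.0 CPM.

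*Rpl15* was low in the libraries in which 2 of its copies were nearly absent. *Rpl15* stood at 76.6, 50.6, 48.9, 63.7 and 65.02 CPM in controls and at 66.1, 59.2, 52.3, 57.1 and 61.9 CPM in *WD1* cKO. The copy *Gm8420* had 164, 3, 4, 101 and 111 counts in controls and 109, 100, 2, 69 and 152 counts in *WD1* cKO. A further copy, *Gm14094* (chr2:133199611-133200220, plus strand), had 38, 1, 2, 14 and 17 counts in controls and 16, 20, 0, 14 and 19 counts in *WD1* cKO. The 3 libraries with at most 4 counts in *Gm8420* and at most 2 in *Gm14094*, control replicates 2 and 3 and *WD1* cKO replicate 3, were also the 3 lowest in *Rpl15*, and control replicate 1 was the highest in all 3 genes when scaled to CPM. Another copy, *Gm13688*, did not share this pattern, with 9, 12 and 12 counts in those 3 libraries and 6 to 15 counts in the other 7.

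Other copies were nearly absent in some libraries and well counted in others. *Rpsa-ps10* had 1, 1289, 1, 726 and 636 counts in controls and 1, 3, 4, 534 and 1047 counts in *WD1* cKO. *Rpsa-ps11* (chr4:59162268-59163156, minus strand) had 73, 0, 82, 60 and 35 counts in controls and 90, 122, 129, 42 and 75 counts in *WD1* cKO, so the library with the highest *Rpsa-ps10* CPM was the one with no *Rpsa-ps11* count. *Gm6472*, the copy of *Rps7*, had 315, 393, 22, 20 and 17 counts in controls and 391, 17, 502, 11 and 576 counts in *WD1* cKO. High and low libraries of *Rpsa-ps10* and *Gm6472* were found in both genotypes, while the only library with no *Rpsa-ps11* count was a control. *Rpsa* itself stood at 4.09, 2.42, 4.42, 3.60 and 3.30 CPM in controls and at 3.41, 4.29, 4.07, 3.30 and 4.32 CPM in *WD1* cKO. It was lowest in control replicate 2, the library with the most *Rpsa-ps10* counts. Other libraries did not follow that order. *WD1* cKO replicate 5, with 1047 *Rpsa-ps10* counts, had *Rpsa* at 4.32 CPM, and *WD1* cKO replicate 1, with 1 count, had it at 3.41 CPM. Of 42 copies with at least 100 counts over all libraries, 7 had a library with at most 4 counts and another with at least 15. Among the 7 are *Gm5835*, *Gm16415* and *Gm11539*, with at most 22, 20 and 17 counts in any library, where counting error is large. *Gm6472*, with at least 11 counts in every library, is not among them. The copies given library by library were picked after their values were seen. The 985 pseudogene copies together held 0.007 to 0.015% of the counts of a library, and 111 of them had no count in any library.

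**Figure D4:**
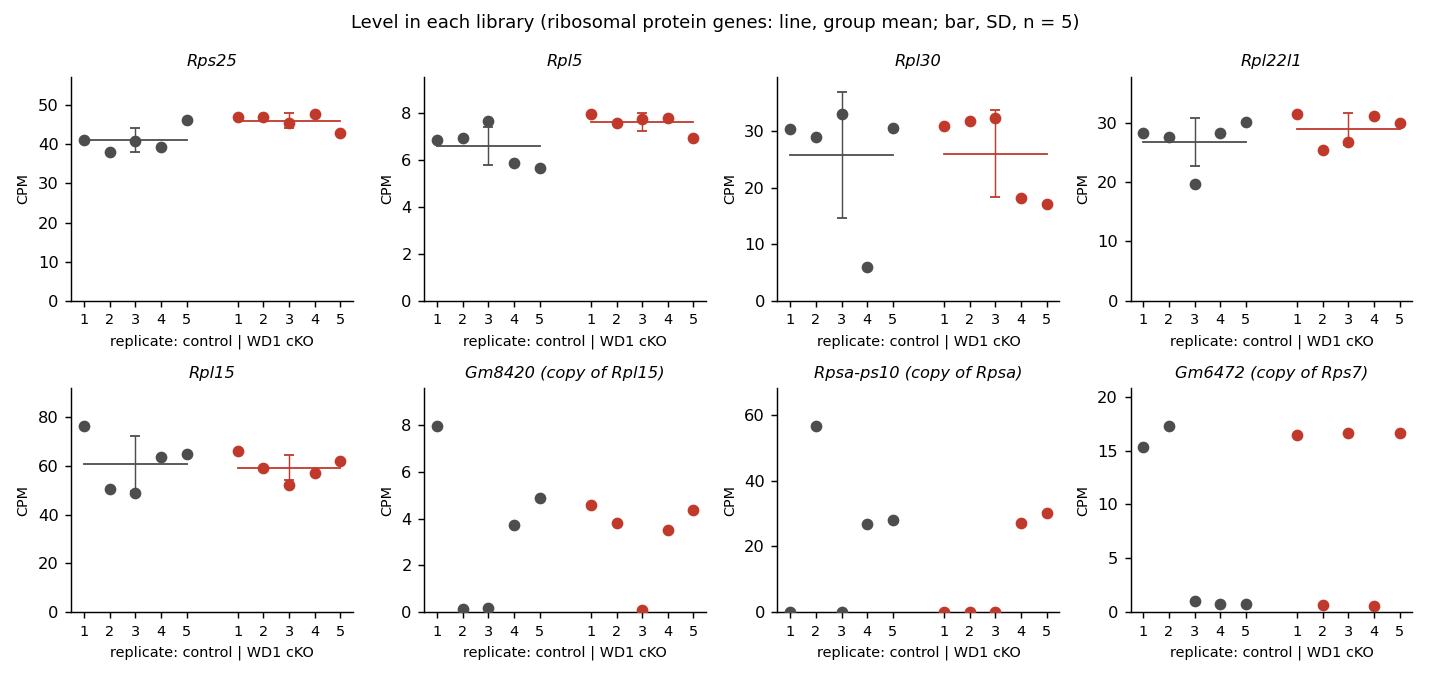
CPM in each control (grey) and *WD1* cKO (red) library for 5 ribosomal protein genes, with group mean and SD (n = 5), and for 3 pseudogene copies, without a mean. *Rps25* and *Rpl5* overlap between groups, and *Rpl30* and *Rpl22l1* show libraries far from the rest of a group. *Rpl15* is spread from 48.9 to 76.6 CPM over the controls, and each copy is near 0 in 3 to 5 libraries.

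By genotype, no ribosomal protein gene passed the test. Among the 80 tested members 0 had a Benjamini-Hochberg adjusted p under 0.05 in edgeR's quasi-likelihood test, while 7 of the 17490 genes tested did (0.04%), and DESeq2 also called 0 members. At an unadjusted p under 0.05, 2 members were higher in *WD1* cKO (2.50%, against 2.12% of all genes tested) and 0 were lower (against 2.38%), while 4.5% of all genes tested reached that p in either direction. In no member did the 5 libraries of a group lie all above or all below the other group, which was the case in 0.497% (higher in *WD1* cKO) and 0.566% (lower) of all genes tested.

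Most fold changes were small and slightly positive. The log2 fold change was positive in 56 of 80 members (70.0%, against 50.1% of all genes tested), with a median of 0.04 against 0.00 for all genes tested. It was 0.04 for both the 48 large subunit and the 32 small subunit members. Since the members move together between libraries, their signs are not independent. Summed markers of connective tissue stood at 4655 ± 666 CPM in controls and 5025 ± 344 CPM in *WD1* cKO, those of cycling cells at 255 ± 21.7 and 275 ± 25.5 CPM, and those of blood at 1115 ± 1000 and 563 ± 391 CPM (SD, n = 5 each). No tested marker of these 3 cell types passed the adjusted test, and their part in the signs of the members was not tested. Leaving out *WD1* cKO replicate 3 lowered the median to 0.02, with 48 members positive, and leaving out control replicate 3 raised it to 0.05. The log2 fold change together with 2 SE stayed within ±0.5 in 75 of the 80 members and within ±0.25 in 53. The members were not measured equally well. The median SE was 0.09 for the 24 members with no unique window, of which 14 were positive. It was 0.05 for the 23 tested members with 50% or more of their windows unique, of which 19 were positive. The widest error, ± 0.35 (SE), was that of *Rpl30*, with a log2 fold change of 0.02.

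**Figure D5:**
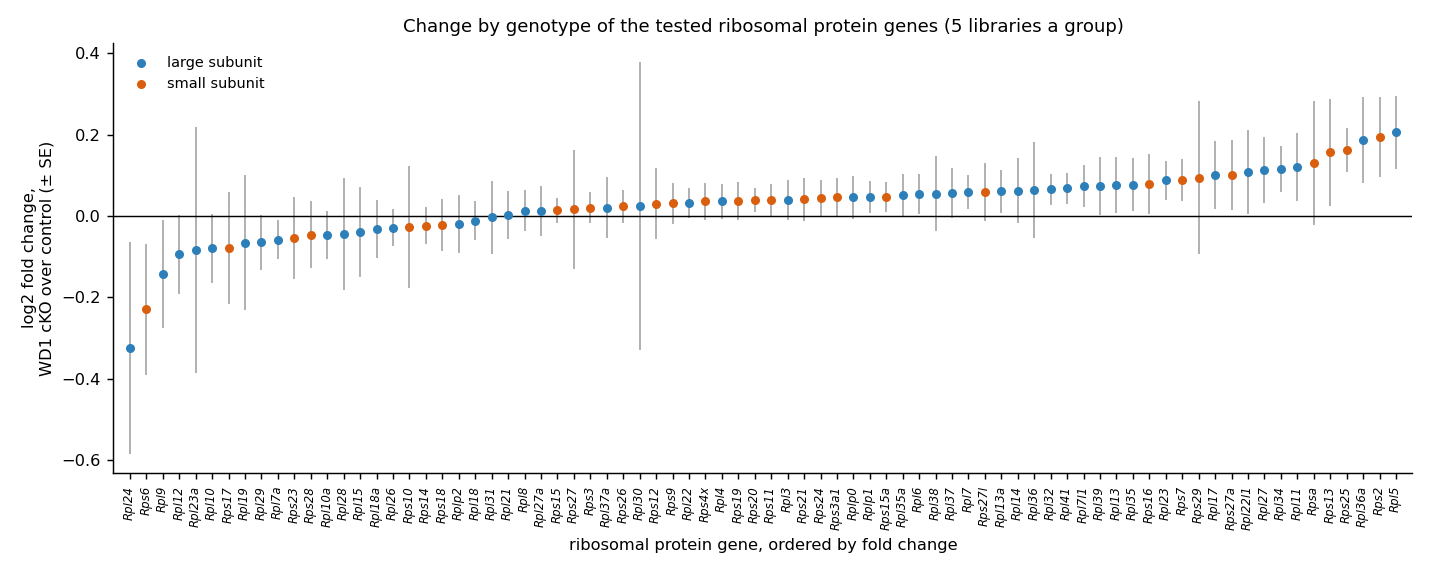
Log2 fold change of *WD1* cKO over control with its SE for 78 of the 80 tested ribosomal protein genes, ordered by size, 5 libraries in each group. Values run from -0.32 (*Rpl24*) to 0.21 (*Rpl5*), and none passed the adjusted test.

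The members with the lowest p among those higher in *WD1* cKO were *Rps25*, *Rpl5*, *Rpl34*, *Rps2* and *Rpl23*. *Rps25*, a small subunit protein needed for translation from some viral internal entry sites, stood at 41.2, 38.1, 40.9, 39.3 and 46.3 CPM in controls and at 47.2, 46.9, 45.5, 47.7 and 43.0 CPM in *WD1* cKO. Control replicate 5 lay within the *WD1* cKO range and the other 4 controls below it. Its log2 fold change was 0.16 ± 0.05 (SE, n = 5 and 5; edgeR p = 0.0106, Benjamini-Hochberg adjusted p = 1.00, exact two-sided permutation p = 0.0238). *Rpl5* stood at 6.87, 6.96, 7.66, 5.88 and 5.67 CPM in controls and at 7.95, 7.59, 7.77, 7.82 and 6.95 CPM in *WD1* cKO. Control replicate 3 and *WD1* cKO replicate 5 made the groups overlap. Its log2 fold change was 0.21 ± 0.09 (SE, n = 5 and 5; edgeR p = 0.0423, adjusted p = 1.00, exact two-sided permutation p = 0.0397), and *Rpl11*, its partner in the 5S particle, had 0.12 ± 0.08. *Rpl34*, *Rps2* and *Rpl23* had log2 fold changes of 0.11 ± 0.06, 0.19 ± 0.10 and 0.09 ± 0.05 (SE, n = 5 and 5), with edgeR p of 0.0627, 0.0711 and 0.0900. The value of *Rpl34* fell to 0.07 without control replicate 1, and that of *Rps2* ranged from 0.14 without control replicate 4 to 0.30 without control replicate 1.

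Members with low p among those lower in *WD1* cKO were *Rps6*, *Rpl24*, *Rpl7a* and *Rpl9*. *Rps6* stood at 2.29, 3.26, 2.35, 2.32 and 1.93 CPM in controls and at 1.94, 2.39, 2.35, 1.57 and 2.05 CPM in *WD1* cKO, with control replicate 2 the highest and the groups overlapping. Its log2 fold change was -0.23 ± 0.16 (SE, n = 5 and 5; edgeR p = 0.180, exact two-sided permutation p = 0.270), and without control replicate 2 the log2 fold change was -0.10. *Rpl24* had -0.32 ± 0.26, at 0.81 to 2.11 CPM in all libraries, *Rpl7a* -0.06 ± 0.05 and *Rpl9* -0.14 ± 0.13. The log2 fold change of *Rpl24* was -0.11 without control replicate 2, and that of *Rpl9* was -0.03 without control replicate 1.

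None of the paralogues passed the test either. *Rpl22l1* had a log2 fold change of 0.11 ± 0.10, *Rpl7l1* 0.07 ± 0.05 and *Rps27l* 0.06 ± 0.07 (SE, n = 5 and 5), and their partners *Rpl22*, *Rpl7* and *Rps27* had 0.03 ± 0.04, 0.06 ± 0.04 and 0.02 ± 0.15. *Rpl3*, *Rpl10* and *Rpl39* had 0.04 ± 0.05, -0.08 ± 0.09 and 0.07 ± 0.07. *Rpl10l* had 0 to 4 counts, *Rpl39l* 0 to 5 and *Rpl3l* 1 to 5 counts in a library. A count of 0 allows up to 3 counts, which is 0.086 to 0.152 CPM in these libraries, counting error only. *Rps4l*, whose symbol matches the rule but which is annotated as a transcribed processed pseudogene, had 509 to 985 counts per library, and its partner *Rps4x* stood at 46.2 to 53.9 CPM.

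Other genes of ribosome synthesis and translation showed as little. None of the 147 tested genes in 10 related lists had an adjusted p under 0.05 in edgeR, or in DESeq2. At an unadjusted p under 0.05 there were 7 (4.76%, against 4.5% of all genes tested), of which 5 were higher in *WD1* cKO: *Eif4e*, the cap-binding initiation factor, *Tpt1*, a TOP mRNA gene, *Ttf1*, the terminator of RNA polymerase I, *Psat1*, a serine synthesis enzyme, and *Ccng1*, a p53-induced cyclin. The 2 genes lower in *WD1* cKO were *Bop1*, a factor of large subunit maturation, and *Cdkn1a*, the p53-induced cell cycle inhibitor. *Tpt1* had a log2 fold change of 0.39 ± 0.16 (68.0 ± 20.1 CPM in controls and 88.6 ± 10.2 CPM in *WD1* cKO, SD, n = 5 each), *Cdkn1a* -0.12 ± 0.04, *Bop1* -0.10 ± 0.04, *Psat1* 0.14 ± 0.05, *Ttf1* 0.13 ± 0.05, *Ccng1* 0.08 ± 0.03 and *Eif4e* 0.08 ± 0.03 (SE).

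List medians of the log2 fold change stayed near 0. They were -0.0007 for 7 elongation factors, 0.002 for 30 initiation factors, -0.01 for 12 other TOP mRNA genes, -0.01 for 39 biogenesis factors, -0.03 for 12 RNA polymerase I genes, -0.03 for 18 genes that signal to ribosome synthesis, 0.01 for 14 p53 targets and 0.02 for 12 genes of the integrated stress response. *Eef1a2*, the neuronal elongation factor, had -0.19 ± 0.09 and *Larp4* 0.06 ± 0.04, the lowest p of their lists. Of the ribosomal proteins outside the symbol rule, *Rpl36al* of the large subunit had 0.18 ± 0.20, and *Fau* and *Rack1* of the small subunit had a median of 0.03, with *Fau* at 0.06 ± 0.10.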

How the data were processed

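DRG RNA was extracted from E18.5 embryos and libraries were made with a stranded mRNA kit. The authors demultiplexed reads with bcl2fastq 2.20.0.422, aligned them to GRCm39 with STAR 2.7.8a, took gene counts with featureCounts 2.0.1 and deposited these raw counts, 1 table per library. Symbols, exon lengths and coding sequences were taken from GENCODE vM21 (GRCm38) by Ensembl gene ID. No coordinates were converted between builds.

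Counts were scaled by TMM and tested with edgeR 4.0.16 (quasi-likelihood, keeping genes that reached 10 counts in 5 libraries or more, Benjamini-Hochberg over all genes tested), after a test on simulated data of 17299 genes, which recovered 31.3% of simulated log2 changes of 0.3, 64.2% at 0.5 and 100% at 1, with 11 false calls. Log2 CPM used a prior count of 1. Copies were found with BLAST 2.17.0. Any 2 libraries of a group differed by 4.35 to 15.0 chi-square per degree of freedom, so none was treated as a duplicate. Controls were littermates, but which libraries share a litter is not given in the sources used here, so p-values measure the spread between these samples.

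Genes were named by rule: the extremes of level, p and correlation, paralogues, the lowest p in each list, and the 5 genes most like the members. Some genes are counted but not reported here. Members and lists were chosen with earlier results of these data known. Alternatives were DESeq2 1.42.0, other scalings and filters, Xist as a covariate, a replicate block and leaving out each library. Sequence counts and floors cover counting error only.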

Additional observations from a re-analysis of the deposited data

Results flagged for a closer look

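Libraries far from the other 4 of their group were looked for in 78 groups of values (the named genes and the summed share, by genotype), and 4 stood out, where chance gives about 3.9. *Rpl30* stood at 5.95 CPM in control replicate 4, against 29.0 to 33.0 CPM in the other controls. *Rpl22l1* stood at 19.7 CPM in control replicate 3, against 27.7 to 30.2 CPM. *Rps2*, a small subunit protein at the mRNA entry, stood at 63.9 CPM in *WD1* cKO replicate 1, against 72.6 to 75.7 CPM. *Rpl10l* stood at 0.058 CPM in *WD1* cKO replicate 5 with no count in the other *WD1* cKO libraries, which lies under the limit that a count of 0 allows.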

How the results depend on the processing

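The count of 0 ribosomal protein genes and of 0 genes of the related lists with an adjusted p under 0.05 was the same under all 18 alternatives. Each of the 10 members with the lowest p in either direction kept its direction in every alternative that tested it. These members were picked for low p in the same libraries, so the kept directions are a description and no separate support. The number of members with an unadjusted p under 0.05 was 2, and it became 5 without a filter on low counts (4 higher), 1 with DESeq2 and 1 with Xist as a covariate. It ranged from 1 to 4 when libraries were left out, with 4 without control replicate 3 and 1 without control replicate 5, *WD1* cKO replicate 2 or *WD1* cKO replicate 3. The count of all genes called was 7, and it became 4 when genes needed a mean count of 100, 19 with DESeq2, 4 with Xist as a covariate, and 3 to 6 when libraries were left out. The median log2 fold change of members ranged from 0.02 to 0.05, the control share from 0.461 to 0.475%, the *WD1* cKO share from 0.475 to 0.486%, and the median r from 0.40 to 0.53 when libraries were left out. The cause of these shifts was not tested.

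Replicate numbers are shared between groups, but deviations of same-numbered libraries had r = 0.33, 0.04, 0.32, 0.35 and 0.39 for numbers 1 to 5, and no source used here ties the numbers to litters, so they were not taken to pair the samples, although 7 of 10 libraries correlated best with their own number. With the replicate number as a block, 4 members had an unadjusted p under 0.05, all higher in *WD1* cKO, 12 genes of the related lists (7 without the block) had such a p, 8 genes were called in all, and the median r of members was 0.45. Depth limits the lowest members, since the least counted tested member had 6 counts in a library.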

Other observations

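Ribosomal protein genes on the X chromosome are *Rpl10*, *Rpl36a*, *Rpl39* and *Rps4x*. *Rpl36a* stood at 6.92, 6.52, 8.98, 6.84 and 8.17 CPM in controls and at 9.89, 7.74, 8.96, 7.66 and 8.27 CPM in *WD1* cKO, a log2 fold change of 0.19 ± 0.11 (SE, n = 5 and 5; edgeR p = 0.102, exact two-sided permutation p = 0.127). *Rpl10*, *Rpl39* and *Rps4x* had -0.08 ± 0.09, 0.07 ± 0.07 and 0.04 ± 0.05, and none of the 4 passed the adjusted test. *Xist*, the RNA of the inactive X chromosome, was unevenly spread over the groups, at 4.43, 1167, 4.84, 3.38 and 957 CPM in controls and at 1065, 3.91, 1067, 1062 and 973 CPM in *WD1* cKO, so it was high in 2 of 5 controls and 4 of 5 *WD1* cKO libraries. With *Xist* as a covariate the log2 fold changes of *Rpl36a*, *Rpl10*, *Rpl39* and *Rps4x* were 0.17 ± 0.12, -0.10 ± 0.10, 0.10 ± 0.08 and 0.03 ± 0.05 (SE).

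Of the annotated copies of members, the most counted was *BC004004*, a protein-coding gene that holds a copy of *Rpl21*, with 1445 to 2914 counts per library, evenly over libraries (a ratio of 1.24 between the highest and the lowest CPM). *Rpl14-ps1*, the copy of *Rpl14*, had 63 to 106 counts and a ratio of 1.48. The same ratio was 1350 for *Rpsa-ps10*, 121 for *Gm8420* and 31.0 for *Gm6472*.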
